A study of Mus musculus with 17 samples.

Results

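The Cys-loop receptor subunit genes were examined in RNA sequencing of the mouse cochlea after noise exposure (NE), with and without brimonidine, which activates α2-adrenergic receptors. The members were the protein-coding genes of the deposited table whose symbols begin with Gabra, Gabrb, Gabrg, Gabrd, Gabre, Gabrp, Gabrq, Gabrr, Glra, Glrb, Chrna, Chrnb, Chrnd, Chrne, Chrng or Htr3, with Chrna9 and Chrna10 left out and used only among hair cell markers. The rule gave 40 of 35285 genes, and 37 of them are described here, of which 16 encode GABA-A, 5 glycine, 14 nicotinic and 2 serotonin receptor subunits. Levels are given in FPKM, the fragments of a gene divided by its exon length and by the fragments counted in the library. Of these 37 members, 7 reached 1 FPKM in at least 3 of the 17 libraries, namely Gabra6, Gabrb2, Gabrd, Gabrp, Glrb, Chrnb1 and Chrnb2. Among protein-coding genes, 13774 of 18908 reached that level.

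Cys-loop receptors are ion channels that open when a transmitter binds, and each channel is a ring of subunits around a central pore. GABA-A and glycine receptors pass chloride and usually inhibit the neuron, whereas nicotinic acetylcholine receptors and serotonin type 3 receptors pass cations and usually, but not always, excite the cell. In the inner ear, efferent fibers from the brainstem release acetylcholine and can release GABA, and spiral ganglion neurons carry GABA-A receptors. In the brain, the α6 subunit of the GABA-A receptor is known chiefly from granule cells of the cerebellum, where it often pairs with δ.

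Libraries were made from the cochleae of 17 wild-type male C57BL/6J mice of 8 weeks, taken 2 days after exposure. The NE group (n = 7) had been exposed for 2 h to noise of 8 to 16 kHz at 100 dB SPL. The brimonidine group (n = 7) was exposed in the same way and was given brimonidine 3 times, intraperitoneally at 1 mg/kg, on the day before the noise, the day of it and the day after. The control group (n = 3) received saline and no noise, and the methods name no injection for the NE group. The labels give the source as cochlear cells and the cell type as interstitial cells, while the study names both cochleae and basilar membrane tissue as the source of the RNA sequenced.

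The total by which each library was divided, recovered from the steps of its FPKM values, was 14457733 to 18288854 fragments. Control 2 stood apart from the other controls. It was the highest of the 3 controls for 6 of the 7 members above 1 FPKM, at a median of 2.67 times the mean of controls 1 and 3, whereas over 16416 genes it was the highest for 51.2%, at a median of 1.085 times. Brimonidine 5 was the highest of the 14 noise-exposed libraries for 6 of the 7 members, against 11.35% of the same genes. Marker lists differed between the groups as well. The summed level of 14 markers of cerebellar neurons was 254 to 672 FPKM in controls, 22.8 to 33.7 FPKM in the NE group and 24.3 to 93.1 FPKM in the brimonidine group, where brimonidine 5 was the highest. All 14 were called lower in both exposed groups, although 8 of them in the NE comparison and 7 in that with brimonidine entered the test only through the controls, and none was at 0 in every NE library, although Barhl2, En2, Pcp2 and Ppp1r17 were at 0 in at least 1. The sum for 8 markers of glia of the central nervous system was 173 to 350 FPKM in controls and 46.0 to 75.1 FPKM in the NE group, with 4 of 7 tested lower, of which Olig1 entered the test only through the controls. The sum for 11 markers of spiral ganglion neurons was 186 to 547 FPKM in controls and 70.9 to 168 FPKM in the NE group, with 3 of 10 tested lower, of which Th did so. The sums for hair cells (13.7 to 30.1 FPKM in controls, 13.7 to 18.2 in NE), the cochlear epithelium and lateral wall (577 to 1460 and 629 to 930) and Schwann cells (105 to 294 and 91.4 to 170) were above 0 in every library. Of their markers, 4 of 8 for hair cells (5 with brimonidine), 8 of 10 for the epithelium and 5 of 5 for Schwann cells were tested. No tested marker of these 3 lists passed the thresholds in either comparison with control. Of the skeletal muscle markers, 3 of 8 tested were higher in the NE group, where the sum was 399 to 960 FPKM against 205 to 552 in controls. In the brimonidine group, at 315 to 821 FPKM, 0 of 8 muscle markers were called against control. There, 5 of 7 glial and 4 of 10 spiral ganglion markers tested were lower, with Olig1 and Th again entering only through the controls. The sum for neutrophils and marrow was 5346 FPKM in control 2, where it was lowest, while controls 1 and 3, at 23470 and 22610 FPKM, were within the NE range of 21000 to 32520 FPKM, and no marker of it or of the erythroid list passed. The part of these cell types in the differences below was not tested, and in bulk RNA fewer cells of a type and less RNA per cell cannot be told apart.

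Between the NE and control groups, 5 of the 7 members tested were lower in the NE group and 0 were higher. A gene was tested if it reached 1 FPKM in at least 3 of the libraries compared, and it was called at an adjusted p under 0.05 with a log2 fold change of at least 1 in either direction (limma on log2(FPKM + 1), Benjamini-Hochberg adjustment over all genes tested). Of all 15950 genes tested, 5.49% were lower and 0.27% higher. Of the 7 members, 4 (Gabra6, Gabrb2, Gabrd and Chrnb2) had too few NE libraries at 1 FPKM to pass without the controls, so they entered the test only through the group where they were high, and the count of 5 lends no support by itself. With no filter on low values, all 37 members were tested, and the 5 called lower stood against 2.67% of 33587 genes. Without control 2, and with the same genes tested, 3 of the 7 were called lower, against 3.47% of all genes, and the calls lost were Chrnb2 and Glrb.

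The α subunits form the GABA site together with β, and the gene of α6 differed the most of the 7 members tested. Gabra6 (ENSMUSG00000020428, GRCm38 chromosome 11 from 42306437 to 42321072) was the member with the highest level in controls, at 31.5, 93.4 and 36.9 FPKM. In the NE group its lowest level was 0, its median 0.220 and its highest 2.08 FPKM, and in the brimonidine group these were 0, 0.187 and 8.81 FPKM. No exposed library reached the lowest control, and brimonidine 5 and NE 1 were the highest of their groups. Control libraries averaged 54.0 ± 34.3 FPKM (SD, n = 3) and NE libraries 0.439 ± 0.738 FPKM (SD, n = 7). The log2 fold change was -5.20 (SE 0.39, adjusted p = 4.99e-05, limma). No fragment of Gabra6 was counted in NE 2, NE 3 and brimonidine 1, which at 3 fragments allows up to 0.0689 FPKM, for counting error only.

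Among the subunits that complete the channel, Gabrd and Gabrb2 were lower as well. Gabrd (ENSMUSG00000029054, chromosome 4 from 155384980 to 155398112), which takes the place of γ in receptors outside the synapse, had 10.0, 29.6 and 10.4 FPKM in controls. Across the NE libraries, Gabrd had a lowest, median and highest level of 0.139, 0.304 and 0.694 FPKM. These ranges did not overlap, and the log2 fold change was -3.57 (SE 0.28, adjusted p = 4.99e-05, limma). Gabrb2 (ENSMUSG00000007653, chromosome 11 from 42419757 to 42629028), a β subunit common in brain receptors, had 3.31, 10.5 and 4.54 FPKM in controls and 0.0199, 0.0860 and 0.385 FPKM at the lowest, median and highest in the NE group. The groups did not overlap for Gabrb2 either, and its log2 fold change was -2.52 (SE 0.25, adjusted p = 0.000167, limma). The median NE level was 0.407% of the control mean for Gabra6, 1.41% for Gabrb2 and 1.83% for Gabrd.

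**Figure D1:**
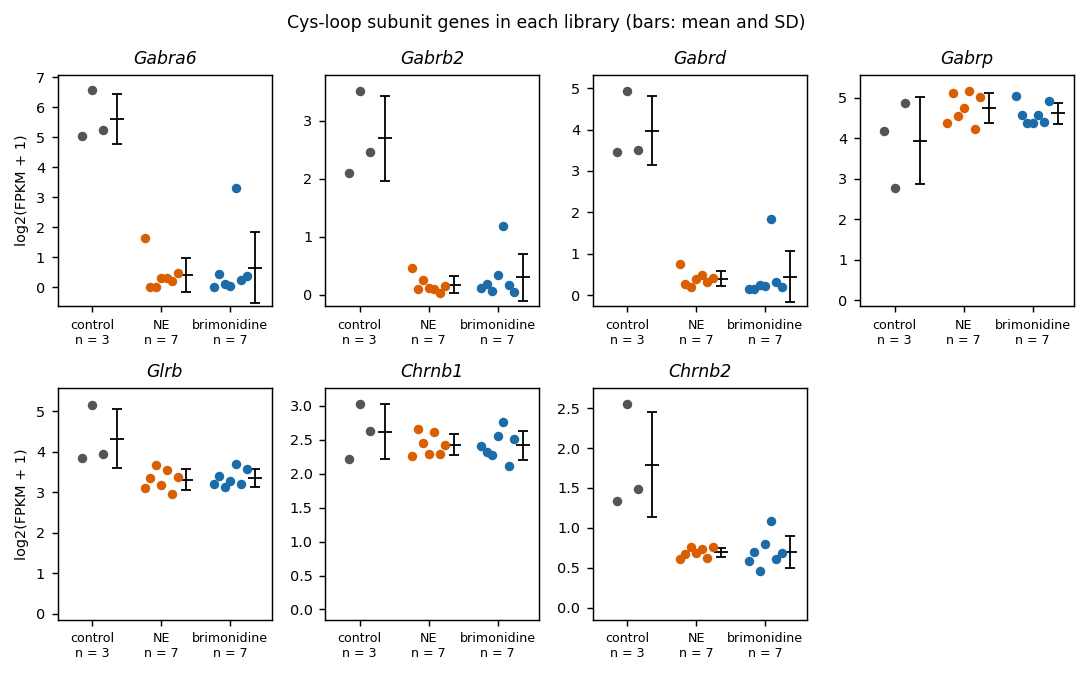
Level of the 7 members that reached 1 FPKM in at least 3 libraries, as log2(FPKM + 1) on the vertical axis of each panel, for the control (n = 3), NE (n = 7) and brimonidine (n = 7) groups. Points are libraries and bars the mean and SD; every exposed library lies below every control except for Gabrp and Chrnb1, and brimonidine 5 is the highest brimonidine library for 6 of the 7 genes, all but Gabrp.

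Among the 5 genes Gabra2 to Gabra6, the makeup was steady in the controls although the sum was not. The FPKM of these 5 summed to 33.2 in control 1, 97.7 in control 2 and 38.7 in control 3, and Gabra6 held 94.7%, 95.6% and 95.5% of these sums. The sums of the NE libraries were 0.358 to 2.73 FPKM, and the share of Gabra6 ranged from 0% to 76.3% with a median of 35.0%. Gabra3 held 1.31% to 2.23% of the sum in controls and 11.2% to 47.4% in the NE group, and Gabra4 held 1.30% to 2.12% and 4.30% to 32.6%. Brimonidine 5 had a sum of 9.76 FPKM, of which Gabra6 was 90.3%, the highest share of the 14 exposed libraries. In the other exposed libraries the shares rest on few fragments. For Gabra6 these were 91 in NE 1, 390 in brimonidine 5 and at most 17 in each of the remaining 12.

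**Figure D2:**
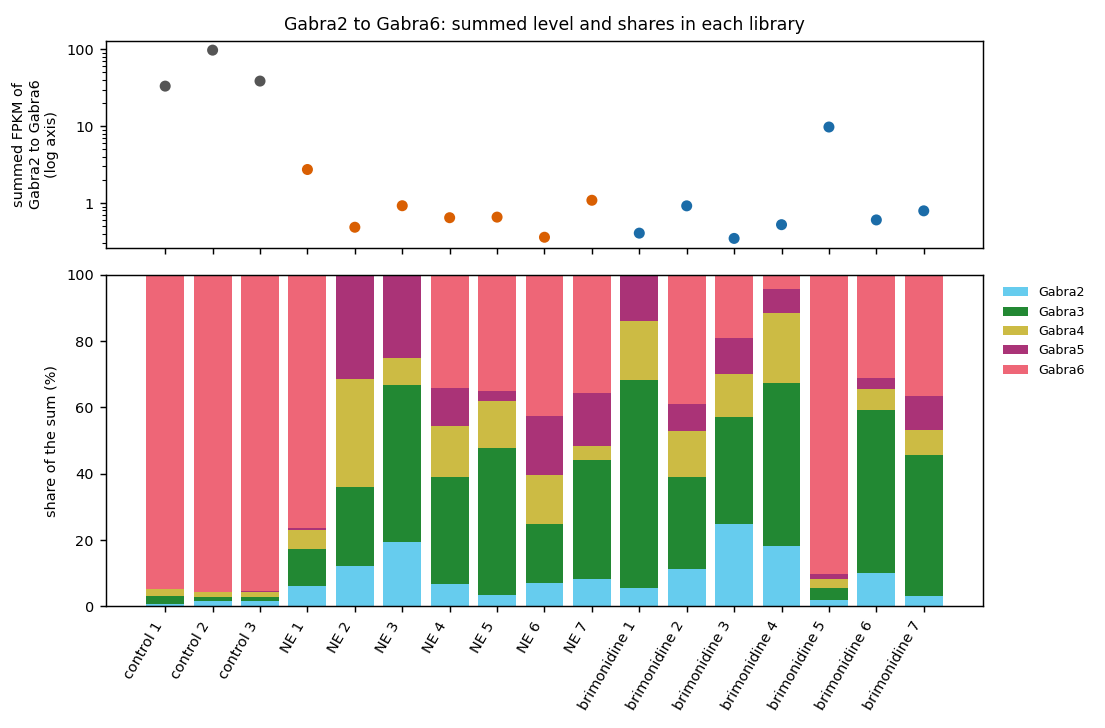
Summed FPKM of Gabra2 to Gabra6 (upper panel, log axis) and the share of each gene in that sum in percent (lower panel) in the 17 libraries. Gabra6 takes 94.7% to 95.6% in the 3 controls, 76.3% in NE 1 and 90.3% in brimonidine 5, and 42.6% or less in the other exposed libraries.

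Leaving out Gabrp, the 15 GABA-A genes described here summed to 48.3, 142 and 55.4 FPKM in the controls. The sum was 1.39 to 4.89 FPKM in the NE group and 15.1 FPKM in brimonidine 5, with the other brimonidine libraries at 2.35 FPKM or less. Every exposed library was below every control.

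Many genes of GABA-A subunits lie in clusters. On chromosome 11, Gabra6 and Gabrb2 span 323 kb, and both were called lower. On chromosome 5, Gabrg1, Gabra2, Gabra4 and Gabrb1 span 1398 kb, and the last 3 reached 1 FPKM in control 2 alone, while Gabrg1 stayed under it in every library. For such low genes, the fragments behind the FPKM values were recovered from the exon lengths and tested with limma's voom. This test, added after the data were seen, covered 21 members with at least 10 fragments in at least 3 libraries, and it called 11 lower in the NE group and 0 higher, against 8.41% lower of all 17751 genes. Of the 11, Gabrg1 had 10 fragments in no NE library and entered this fit only through the controls. Besides the 5 genes called on the FPKM scale, these were Gabra2, Gabra3, Gabra4, Gabrb1, Gabrg1 and Chrnb3. By voom, Gabra6 was at -8.43 (adjusted p = 0.000262), Gabrb2 at -5.71 (adjusted p = 0.000151) and Gabrd at -5.58 (adjusted p = 0.000107). These values are larger in size than those on the log2(FPKM + 1) scale, so the 2 scales should not be compared across genes. Without control 2 the voom fit called 8 lower, against 5.85% of all genes, and Gabra3 (-1.51, adjusted p = 0.0794, voom), Chrnb3 (-1.50, adjusted p = 0.0648) and Glrb (-0.64, adjusted p = 0.0349) were the ones lost.

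Gabrg1, a γ subunit found in glia and some neurons, had 31, 86 and 49 fragments in controls and 0 to 9 in the NE libraries, and differed by a log2 fold change of -4.04 (SE 0.61, adjusted p = 0.001, voom). Gabra2, an α subunit of the forebrain and of motor neurons, had 27, 164 and 70 fragments in controls and 3 to 24 in the NE group (log2 fold change -3.13, adjusted p = 0.0072, voom). Gabra4, which like α6 often joins δ, had 62, 135 and 49 fragments in controls and 5 to 17 in the NE group (-3.10, adjusted p = 0.000501, voom). For these 3 genes the control libraries were all above the NE libraries. Gabrb1 followed with 134, 361 and 161 fragments in controls and 18 to 64 in the NE group (-2.96, adjusted p = 0.000423, voom), and it shares 28 bases of exon with Gabra4 on the other strand. Gabra3, an α subunit of brainstem neurons, differed less, with 42, 76 and 36 fragments against 4 to 30 (-1.84, adjusted p = 0.0208, voom). On the X chromosome, Gabra3 lies with Gabre and Gabrq, and of these Gabre was not called by voom and Gabrq had at most 3 fragments in any library. Gabra5 and Gabrg3 on chromosome 7 had at most 15 fragments in any library and Gabrr1 and Gabrr2 on chromosome 4 at most 9, and the voom fit did not cover them.

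The π and ε subunit genes were not called lower. Gabrp (ENSMUSG00000020159, chromosome 11 from 33550781 to 33578959), a subunit known from epithelia and glands rather than brain, had 17.0, 5.81 and 28.4 FPKM in controls. Its lowest, median and highest levels with NE were 17.7, 25.9 and 34.8 FPKM, and in the brimonidine group 19.9, 22.7 and 32.2 FPKM. It was the only member of the 7 that was lowest in control 2, at 0.256 times the mean of controls 1 and 3, as was the neutrophil and marrow sum at 0.232 times. Control 3 lay within the range of the exposed groups, and the log2 fold change in NE was 0.80 (SE 0.38, adjusted p = 0.166, limma). It was 0.22 without control 2 (adjusted p = 0.709), and without control 3 it was 1.27, past both thresholds (adjusted p = 0.0385). With the others low, Gabrp made up 80.3% to 95.4% of the summed FPKM of the 16 GABA-A genes described in the NE group, against 26.1%, 3.94% and 33.9% in the controls. Gabre, the ε subunit gene, had 0.368 to 0.974 FPKM in controls and 0.513 to 0.791 FPKM with NE. Its log2 fold change was 0.245 by voom (95% interval -0.385 to 0.875, adjusted p = 0.579). Without control 2 it was 0.683 (0.138 to 1.23, adjusted p = 0.125, voom). In the brimonidine group it was 0.469 (adjusted p = 0.249, voom), and without control 2 and brimonidine 5 it was 0.892 with an adjusted p of 0.0408, under the minimum fold.

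**Figure D3:**
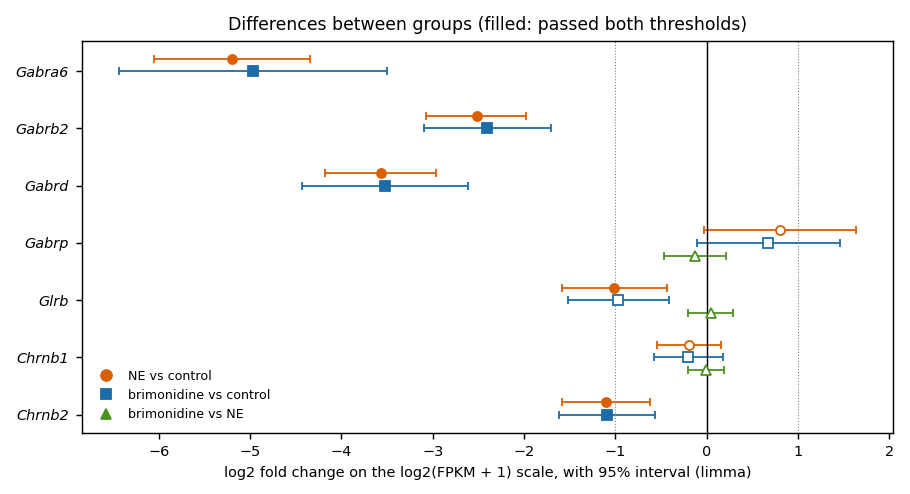
Log2 fold changes on the log2(FPKM + 1) scale with 95% intervals (limma) for the 7 members, with NE against control as circles, brimonidine against control as squares and brimonidine against NE as triangles. Filled symbols passed both thresholds; the comparisons with control share the same 3 control libraries, and only 3 of them were tested between the exposed groups.

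Sequences before a RefSeq start are shown for 5 members, since Gabra6 and Gabrb2 lie in the same cluster and were both lower, Glrb and Chrnb2 were lower by less, and Gabrp was not lower. They are from RefSeq on GRCm38.p6, 250 bases each, 5′ to 3′ on the strand of the gene. Capitals mark CANNTG, the E-box, and TTGGC or its reverse complement GCCAA, the half-site of NFI proteins, which act in cerebellar granule neurons. The windows are chr11:42321073-42321322 on the minus strand for Gabra6, chr11:42420190-42420439 on the plus strand for the first of 3 starts of Gabrb2 (inside the span given above, which begins before the RefSeq starts), chr3:80913661-80913910 on the minus strand for Glrb, chr3:89764633-89764882 on the minus strand for Chrnb2 and chr11:33578958-33579207 on the minus strand for Gabrp.
Gabra6: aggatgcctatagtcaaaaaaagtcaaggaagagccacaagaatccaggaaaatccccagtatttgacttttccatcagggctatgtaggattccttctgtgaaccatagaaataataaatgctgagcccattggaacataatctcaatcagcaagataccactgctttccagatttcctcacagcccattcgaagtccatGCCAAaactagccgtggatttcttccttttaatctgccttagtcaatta
Gabrb2: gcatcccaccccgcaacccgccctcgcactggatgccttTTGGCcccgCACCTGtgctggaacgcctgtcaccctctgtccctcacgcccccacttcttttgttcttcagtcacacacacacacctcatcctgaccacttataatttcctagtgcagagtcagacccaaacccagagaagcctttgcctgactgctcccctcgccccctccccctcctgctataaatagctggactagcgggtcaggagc
Glrb: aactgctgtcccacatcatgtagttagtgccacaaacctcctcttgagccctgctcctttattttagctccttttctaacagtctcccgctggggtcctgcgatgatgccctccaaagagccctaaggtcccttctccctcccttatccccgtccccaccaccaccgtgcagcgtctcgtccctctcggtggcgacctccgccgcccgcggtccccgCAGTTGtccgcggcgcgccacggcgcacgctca
Chrnb2: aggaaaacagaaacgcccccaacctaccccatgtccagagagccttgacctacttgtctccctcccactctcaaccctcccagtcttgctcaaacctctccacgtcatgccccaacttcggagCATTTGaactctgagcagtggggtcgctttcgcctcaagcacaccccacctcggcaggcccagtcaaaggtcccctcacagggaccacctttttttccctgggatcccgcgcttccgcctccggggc
Gabrp: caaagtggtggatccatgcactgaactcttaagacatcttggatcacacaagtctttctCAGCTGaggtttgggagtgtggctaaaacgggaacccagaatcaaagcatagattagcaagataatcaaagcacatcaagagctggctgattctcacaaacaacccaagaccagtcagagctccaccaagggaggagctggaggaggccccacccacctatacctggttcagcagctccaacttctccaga

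The Gabra6 window held a single NFI half-site, with its first base 49 bases before the start, and no E-box. The Gabrb2 window held an NFI half-site 211 bases and an E-box 202 bases before the start, and it had a TATAAA 30 bases before the start, while the windows of the other 2 starts of Gabrb2 held none of the 3 motifs. The bases just after this first start matched no GENCODE M21 transcript of Gabrb2, while those after its last start did. Glrb, Chrnb2 and Gabrp each held a single E-box and no NFI half-site, at 33, 127 and 191 bases before the start. These short motifs are common: of 32851 promoter windows of the same length, 66.2% held an E-box, 41.5% an NFI half-site and 12.4% TATAAA on either strand. Of the 35 windows of 30 members with an entry, 23 held an E-box, 19 an NFI half-site and 5 TATAAA. The windows also differed in base composition. GC content was 40.8% for Gabra6, 58.8% for Gabrb2, 62.4% for Glrb, 59.6% for Chrnb2 and 49.2% for Gabrp, against a median of 52.4% over all windows. A match is a description of the sequence and no evidence of binding.

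Of the glycine receptor genes, only Glrb was well measured. Glrb (ENSMUSG00000028020, chromosome 3 from 80843599 to 80913660) encodes the β subunit, which ties the receptor to the scaffold protein gephyrin and needs an α subunit to form a channel. Its levels were 13.3, 34.8 and 14.4 FPKM in controls, 6.80, 9.11 and 11.8 FPKM at the lowest, median and highest in the NE group, and 7.74, 8.68 and 12.0 FPKM in the brimonidine group. Every exposed library lay below every control, but the gap to control 1 was small. The log2 fold change in NE was -1.01 (SE 0.26, adjusted p = 0.0273, limma), close to the minimum of 1, and without control 2 it was -0.59 with an adjusted p of 0.0564. The call was also lost without NE 1, NE 4 or NE 6, at -0.97, -0.98 and -0.95. The 4 α genes together reached at most 1.41 FPKM in any library, and Glrb was 9.62 to 32.2 times their sum. Glra3, the α3 subunit gene, was the highest of them in every library but NE 7, with 0.257 to 0.930 FPKM in controls and 0.165 to 0.551 FPKM in the NE group (-0.42, 95% interval -1.29 to 0.455, voom). Without control 2 its sign turned, to 0.12 (-0.683 to 0.922, voom). Glra1 (up to 8 fragments), Glra2 (up to 9) and Glra4 (up to 15) were near the limit of counting. All 3 controls were above all NE libraries for Glra2, at 3, 9 and 5 fragments against at most 1.

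Nicotinic genes fall into muscle and neuronal types, which are given in turn. Chrnb1 (ENSMUSG00000041189, chromosome 11 from 69784036 to 69795943), the β subunit of the muscle receptor, had 3.63, 7.10 and 5.16 FPKM in controls and 3.81, 4.35 and 5.29 FPKM at the lowest, median and highest in the NE group. The groups overlapped, and the log2 fold change was -0.19 (95% interval -0.538 to 0.155, adjusted p = 0.409, limma). The other muscle subunits were far lower. Chrna1, Chrnd, Chrne and Chrng summed to 0.397 to 1.87 FPKM, so that Chrnb1 was 2.78 to 9.85 times their sum. Chrne, the ε subunit of the adult junction, had 0.368 to 1.17 FPKM in controls and 0.227 to 0.976 FPKM in the NE group, and Chrng, the γ subunit of fetal muscle, had at most 3 fragments in any library. Summed muscle markers over the same libraries ran from 205 to 960 FPKM.

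Chrnb2 (ENSMUSG00000027950, chromosome 3 from 89746195 to 89764632), the β subunit of the main brain receptor, had 1.54, 4.86 and 1.80 FPKM in controls. The NE libraries had a lowest, median and highest level of 0.530, 0.613 and 0.691 FPKM. The groups did not overlap, and the log2 fold change was -1.10 (SE 0.22, adjusted p = 0.00731, limma). Without control 2 it was -0.72 with an adjusted p of 0.000854, under the minimum fold. By voom Chrnb2 was called with all controls (-1.94, adjusted p = 0.00187) and without control 2 (-1.43, adjusted p = 2.55e-05). Chrnb2 shares 1014 bases of exon with Adar on the other strand, the counting strand was not given in the sources used here, and fragments of the pair cannot then be told apart. Its usual partner Chrna4, the α4 subunit gene, had 0.675, 1.64 and 0.607 FPKM in controls and 0.327 to 0.740 FPKM in the NE group, and did not pass (-0.71, adjusted p = 0.158, voom; -0.26 without control 2, adjusted p = 0.666).

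Of the remaining neuronal nicotinic genes, Chrnb3, which with Chrna6 forms a pair on chromosome 8, had 18, 25 and 22 fragments in controls and 4 to 18 in the NE group (-1.61, adjusted p = 0.0202, voom). Chrna6 had 11, 14 and 7 fragments in controls and 1 to 21 in the NE group (-1.08, adjusted p = 0.265, voom). Chrna7, the α7 subunit gene, had 13, 47 and 13 fragments in controls and 1 to 25 in the NE group (-1.53, adjusted p = 0.122, voom). Only control 2 stood above all NE libraries for Chrna7, and without it the value was -0.92 (adjusted p = 0.479, voom). The cluster of Chrna5, Chrna3 and Chrnb4 on chromosome 9, known from autonomic ganglia, had at most 12 fragments per gene and library, and Chrna2 had at most 14. The serotonin receptor gene Htr3a, the subunit that can form a channel alone, had 14, 15 and 13 fragments in controls and 3 to 28 in the NE group (-0.74, adjusted p = 0.381, voom), and Htr3b had at most 8 fragments in any library.

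The 30 members under the limit of 1 FPKM in 3 libraries were Gabra2, Gabra3, Gabra4, Gabra5, Gabrb1, Gabre, Gabrg1, Gabrg3, Gabrq, Gabrr1, Gabrr2, Gabrr3, Glra1, Glra2, Glra3, Glra4, Chrna1, Chrna2, Chrna3, Chrna4, Chrna5, Chrna6, Chrna7, Chrnb3, Chrnb4, Chrnd, Chrne, Chrng, Htr3a and Htr3b. Of these, 6 reached 1 FPKM in any library, and that library was control 2 for each of them (Gabra2, Gabra3, Gabra4, Gabrb1, Chrna4 and Chrne, up to 1.72 FPKM). The other 24 stayed at or under 0.974 FPKM. Just above the limit was Chrnb2, with 1.54 FPKM in its lowest control. Counting over the 37 members, 12 had every NE library below every control and 0 had every NE library above, where 10.1% of 33587 genes were below and 1.81% above.

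The order of levels changed between the groups. In controls the medians ran from Gabra6 (36.9 FPKM) through Gabrp (17.0), Glrb (14.4), Gabrd (10.4) and Chrnb1 (5.16) to Gabrb2 (4.54), and neighbors overlapped except Gabra6 with Gabrp and Gabrd with Chrnb1. With NE they ran from Gabrp (25.9 FPKM) through Glrb (9.11) and Chrnb1 (4.35) to Gabre (0.639), and the first 3 were in that order in each of the 7 libraries with no overlap. Below these, Gabre, Chrnb2, Chrna4 and Chrne overlapped in the NE group.

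Other genes of the same synapses were read from a list of 44, of which 31 were tested between NE and control, and 9 were lower and 0 higher, against 5.49% of all genes lower. Of the 9, 4 (Gad1, Gad2, Slc32a1 and Ric3) entered the test only through the controls. Of the genes for GABA and glycine synthesis, vesicles and uptake, 4 of 6 tested were lower: Gad1 (log2 fold change -3.25) and Gad2 (-2.32), which make GABA, Slc32a1 (-2.11), which loads it into vesicles, and Abat (-1.72), which breaks it down. The glycine transporter gene Slc6a9 was at -0.46 (adjusted p = 0.134, limma). Both genes of the metabotropic GABA-B receptor were lower, Gabbr1 at -1.35 and Gabbr2 at -2.39. Slc12a5, which exports chloride from mature neurons, was lower (-3.01), while Slc12a2, which imports it and also serves the stria vascularis, was at -0.34 (adjusted p = 0.307, limma).

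Of 10 scaffold and trafficking genes tested, 0 were called. Gphn, which encodes gephyrin, was at -0.50 (adjusted p = 0.0155, limma) and Nlgn2 at -0.91 (adjusted p = 0.0195), and with Gabarapl2 (-0.60) and Lhfpl4 (-0.85) these 4 were past the p threshold and under the minimum fold. For nicotinic receptors, 2 of 7 clustering and assembly genes tested were lower, the chaperone genes Ric3 (-1.32) and Tmem35a (-1.64). Lynx1 (-0.98, adjusted p = 0.0189, limma) and Lypd6 (-0.85, adjusted p = 0.00679) passed the p threshold and stayed under the minimum fold, while Rapsn, which gathers the muscle receptor, was at -0.14 (adjusted p = 0.654, limma). Chat, the enzyme that makes acetylcholine, stayed at or under 0.0469 FPKM in every library, and Ache, which splits acetylcholine, was at -0.45 (adjusted p = 0.209). None of 3 serotonin genes tested was called, and of these Maoa, which breaks serotonin down, was at -0.71 (adjusted p = 0.00614, limma), under the minimum fold. With brimonidine against control, 10 of 30 tested genes of the same synapses were lower, against 5.56% of all genes. Of these 10, 5 entered the test only through the controls.

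Compared with the same 3 controls, the brimonidine group had 4 of the 7 members tested lower and 0 higher, against 5.56% of 15947 genes lower and 0.169% higher. These 4 reached 1 FPKM in no brimonidine library but brimonidine 5 and so entered the test only through the controls, and their count lends no support by itself. The log2 fold changes were -4.97 (SE 0.66) for Gabra6, -3.52 (SE 0.41) for Gabrd, -2.40 (SE 0.31) for Gabrb2 and -1.09 (SE 0.24) for Chrnb2. Their adjusted p values lay between 0.00111 and 0.0122 (limma). Glrb, at -0.97 (adjusted p = 0.0275, limma), passed the p threshold and fell under the minimum fold, Gabrp was at 0.67 (adjusted p = 0.196) and Chrnb1 at -0.20 (adjusted p = 0.427). By voom with all libraries Glrb was called, at -1.04 (adjusted p = 0.0207). Without control 2 and brimonidine 5, and with the same genes tested, 3 of the 7 were called lower, against 3.88% of all genes, with Chrnb2 the call lost. By voom Chrnb2 was still called without these 2 libraries (-1.6, adjusted p = 0.000109). With no filter, 4 of the 37 were called lower, against 2.69% of all genes, and the voom fit called 12 of 22 lower, against 8.83%, or 10 without the same 2 libraries, against 6.7%. Of the 12, Chrna6 and Chrnb3 had 10 fragments in fewer than 3 brimonidine libraries and would not have entered that fit without the controls. Over the 37 members, 14 had every brimonidine library below every control, where 9.81% of 33505 genes did. For each of the 5 genes lower in NE, all 7 libraries of either exposed group were below the 3 controls. Such a separation fixes the two-sided exact permutation p at 0.0167, the smallest possible for 7 libraries against 3, so that p adds nothing to the lack of overlap.

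**Figure D4:**
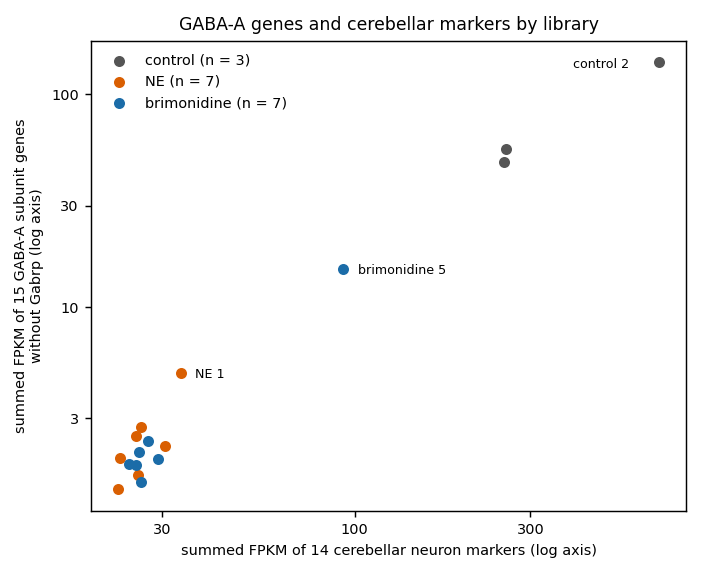
Summed FPKM of 15 GABA-A subunit genes without Gabrp against the summed FPKM of 14 markers of cerebellar neurons in each library, both on log axes, with groups by color. Control 2 is highest on both axes (142 and 672 FPKM), brimonidine 5 is the highest exposed library (15.1 and 93.1 FPKM) and NE 1 the highest of the NE group (4.89 and 33.7 FPKM).

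The GABA-A sums and the cerebellar markers were set side by side by library. Control 2 had 2.63 times the mean of controls 1 and 3 in the cerebellar sum, and 2.73 times in Gabra6, 2.67 times in Gabrb2 and 2.90 times in Gabrd. The ratio was also 2.92 times in Chrnb2, 2.51 times in Glrb and 1.62 times in Chrnb1, and between 1.83 and 2.77 times in the sums for spiral ganglion neurons, Schwann cells, skeletal muscle, the cochlear epithelium, hair cells and central glia. For the erythroid sum it was 4.77 times (5057 FPKM in control 2), and for neutrophils and marrow 0.232 times. Brimonidine 5 had 23.6% of the control mean in the cerebellar sum, and 16.3% in Gabra6, 20.7% in Gabrb2 and 15.6% in Gabrd, where no other brimonidine library passed 7.42% in the cerebellar sum or 4.47% in these 3 genes. Brimonidine 5 was also the highest of its group for central glia (32.2%, others up to 25.6%), Chrnb2 (41.3%, others up to 27.2%) and skeletal muscle (246%, others up to 227%), and for spiral ganglion markers it had 40.1% and the others up to 39.4%. The part of cerebellar cells in the GABA-A levels was not tested.

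Brimonidine was compared directly with NE alone to ask whether treatment changed these genes after the same exposure. Of the members described, Gabrp, Glrb and Chrnb1 reached 1 FPKM in 3 of these 14 libraries, and 0 of the 3 were called, as were 0 of all 15707 genes (0.0%). In limma 0 of the 3 had an unadjusted p under 0.05, against 387 lower and 519 higher of all genes, and voom called 0 of 22 members. The log2 differences, brimonidine minus NE, were -0.13 for Gabrp (95% interval -0.47 to 0.21), 0.04 for Glrb (-0.20 to 0.29) and -0.01 for Chrnb1 (-0.21 to 0.20). Exact two-sided permutation tests gave p = 0.466, 0.73 and 0.946. The intervals of these 3 genes lay within 1 of 0 on the log2 scale, whereas that of Gabra6 by voom (0.35, 95% interval -2.53 to 3.22) did not. Without brimonidine 5 the Gabra6 difference turned to -0.60 (-3.14 to 1.95, voom), and that of Gabrd went from -0.31 to -0.88 (adjusted p = 0.986 and 0.899, voom). By voom, 2 of the 22 members had an unadjusted p under 0.05, against 5.62% of all 17867 genes. Glra3 was higher with brimonidine by 0.60 (SE 0.20, adjusted p = 0.686, voom) and Gabrg1 by 1.42 (SE 0.50, adjusted p = 0.765, voom), and neither passed. Gabrg1 entered this fit only through the brimonidine group.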

How the data were processed

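Cochlear RNA of 17 mice was sequenced with a stranded mRNA kit. The authors deposited FPKM values for 35285 genes, that is, fragments divided by exon length and by the fragments counted, with no further scaling. The submitters' processing notes name Trimmomatic, HISAT2, HTSeq, Cufflinks and mm10, and the counting strand and annotation are not given in the sources used here. Positions of 36 of the 37 members described matched GENCODE M21. FPKM multiplied by M21 exon length gave whole fragments (within 0.02) for 93.7% to 94.7% of values under 300 fragments per library and for 36 of the 37, all but Gabrr3.

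Genes that reached 1 FPKM in 3 or more of the compared libraries were fitted with limma 3.58.1 (R 4.3.3, lmFit and eBayes with trend) on log2(FPKM + 1). Each model held the 2 groups of its comparison alone. This scale understates the change of low genes. A call required an adjusted p under 0.05 together with a log2 fold change of 1 or more in size. Single genes were also compared by exact two-sided permutation tests (scipy 1.17.1, Python 3.11.15). The fit was tested on simulated data. Recovered fragments were fitted with limma's voom as an alternative chosen after seeing the data, where genes had at least 10 fragments in at least 3 libraries. Other alternatives were a pseudocount of 0.1, no filter, 3 scalings, all libraries in 1 model, no minimum fold, the replicate number as a block, and libraries left out.

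All members described are named, and 3 of the 40 members and 2 partner genes are not reported here. Those at 1 FPKM in at least 3 libraries are described by class with values, and called members by library or by lowest, median and highest. Genes outside the members come from written lists of cell type markers and synaptic partners, of which Slc18a3 was not analysed here. Members, lists and tests were chosen with earlier results of these data known. Promoter sequences are from RefSeq on GRCm38.p6, and 30 of the 37 had an entry. Protein sequences were not used here.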

Additional observations from a re-analysis of the deposited data

Results flagged for a closer look

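In 14 groups of 7 libraries (7 members in the NE and the brimonidine group), the gap between the highest or lowest library and its nearest neighbor on the log2(FPKM + 1) scale was compared with the range of the group. A gap above 0.568 of the range was taken as far from the rest, which chance gives in about 1 group in 20 for normal values. As the 14 groups share libraries, the number that passed cannot be set against that rate. In all, 4 groups passed. Of these, 3 were brimonidine 5 as the highest of its group. Its gap was 0.908 of the range for Gabrd (2.6 FPKM, next 0.243), 0.866 for Gabra6 (8.81, next 0.358) and 0.73 for Gabrb2 (1.26, next 0.273). The other was NE 1 for Gabra6, with a gap of 0.709 (2.08 FPKM, next 0.388). Brimonidine 5 and NE 1 also had the highest cerebellar marker sums of their groups, at 93.1 and 33.7 FPKM, and the part of cerebellar cells in these values was not tested.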

How the results depend on the processing

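With all controls, the pseudocount, filter, scalings, common model and fold minimum left 4 or 5 members lower in NE and 3 to 5 lower with brimonidine, 0 higher, and 0 called between the exposed groups. Quantile normalization moved the median log2 fold change of all genes by 0.106 in NE and 0.102 with brimonidine. In both comparisons with control it took Chrnb2 under the minimum fold. Leaving out 1 library in turn gave 1 to 5 members lower and 0 to 1 higher in NE, and 3 to 5 lower and 0 to 1 higher with brimonidine. The member higher was Gabrp, without control 3. In NE the low counts, 2, 1 and 2 without controls 1, 2 and 3, came with 4 members tested instead of 7, and with the tested genes kept, a setting chosen after seeing the data, they were 5, 3 and 5. With control 2 and brimonidine 5 left out, 1 was lower in NE and 0 with brimonidine (4 and 3 members tested), or 3 and 3 with the genes kept. The voom fit gave 11 lower in NE and 12 with brimonidine (8 and 10 without these libraries). Replicate numbers did not pair the samples (13 correlations from -0.22 to 0.08), and with the replicate number as a block 0 members were lower in NE, as were 0 of all genes (5 of 7 members had an unadjusted p under 0.05, limma), and 3 with brimonidine. Values near 0 changed sign. Against control, Chrnb1 was 0.0086 in NE and 0.0017 with brimonidine without control 2, 0.0035 in NE by voom without control 2, and -0.395 to 0.0086 and -0.401 to 0.0017 over libraries left out. Between brimonidine and NE, Chrnb1 was 0.0121 with equal FPKM totals and -0.0646 to 0.045 over libraries left out, and Glrb -0.0159 without control 2 and brimonidine 5, -0.0199 in the same setting by voom, and -0.0159 to 0.104. By voom without control 2 and brimonidine 5, signs also changed for Glra3 (-0.42 to 0.12) and Chrna1 (-0.24 to 0.33) in NE, for Chrna1 with brimonidine (-0.37 to 0.087), and between brimonidine and NE for Gabra6 (0.35 to -0.60), Gabrb2 (0.41 to -0.12) and Gabra2 (0.047 to -0.19). The causes were not tested. Members that reached 10 fragments in fewer than 3 libraries were too shallow for the voom test.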
